A study of Mus musculus with 4 samples.

Results

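MHC class I genes encode the heavy chains that hold peptides from inside the cell and show them at the surface to CD8 T cells and natural killer cells. The report covers 10 named genes of this system among the 49671 genes in the deposited tables. They are the 7 heavy chain genes H2-K1, H2-D1, H2-Q4, H2-Q6, H2-Q7, H2-T22 and H2-T23, the light chain gene B2m, the peptide transporter gene Tap1 and the transactivator gene Nlrc5. They were chosen by name, to set the polymorphic heavy chains against the conserved B2m, Tap1 and Nlrc5.

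RNA was read from spleen CD3+ T cells of female F1 hybrids between Mus musculus castaneus fathers and C57BL/6 mothers that carried a heterozygous Xist deletion. All 4 libraries form a single group, labelled as biological replicates. The cells had been stimulated for 48 hours through CD3, by an antibody fixed to the plate (1 µg/ml), and through CD28, by an antibody in solution (10 µg/ml), while exposed to 2.5 µM IMD-0354, an inhibitor of the NF-κB activating kinase IKKβ. Every library thus shares the stimulation, the inhibitor and the Xist deletion cross, and the effect of any of these on class I genes cannot be read from them. Age is not given in the labels, and p-values measure the spread between these 4 libraries only. The alleles were compared within each library, so that every ratio below is the paternal Castaneus allele over the maternal C57BL/6 allele, and strain and parent of origin cannot be told apart.

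Class I heavy chains are built in the endoplasmic reticulum, where they pair with beta-2 microglobulin, the product of B2m. Tap1 and Tap2 form the transporter that brings in peptides cut by the proteasome, and a loading complex of tapasin, calreticulin and Pdia3 fits them into the groove. H2-K1 and H2-D1 are the classical heavy chains, which are among the most polymorphic genes of the mouse, while the Q and T genes are nonclassical ones. Nlrc5 is drawn to class I promoters by the RFX, CREB and NF-Y proteins on the X and Y boxes, and upstream of these lie an NF-κB site in enhancer A and an interferon response element.

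Allelic reads numbered 30539711 to 34992012 per library. Of the 7 T cell marker genes all were at 1 RPKM (reads scaled to gene length and library size) or more, with summed levels of 357 to 387 RPKM. The 2 natural killer markers Ncr1 and Klrb1c were both under 0.1 RPKM in the mean and at 0 in 1 library each. B cell markers summed to 4.61 to 10.5 RPKM over 5 genes and myeloid markers to 20.9 to 82.6 RPKM over 6 genes, most of it Lyz2, and C1qa was at 0 in replicate 2. The class II genes H2-Aa, H2-Ab1 and H2-Eb1 with Cd74, which mark antigen presenting cells, summed to 305, 231, 244 and 195 RPKM in replicates 1 to 4. As a check of the allele labels, the class II pseudogene H2-Ea-ps, which C57BL/6 does not transcribe, had 470, 438, 433 and 352 Castaneus reads in replicates 1 to 4 and 0 C57BL/6 reads in each. With 3 counts as the limit, these zeros allow C57BL/6 shares of up to 0.638%, 0.685%, 0.693% and 0.852%.

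B2m was among the highest genes of these cells, and its level was close to that of the 7 heavy chains added together. The B2m gene (ENSMUSG00000060802, chromosome 2:122147686-122153083, plus strand, mm10) stood at 1416, 1602, 1714 and 1791 RPKM in replicates 1 to 4, a mean of 1631 ± 163 (SD, n = 4), and took rank 14 among all genes by mean RPKM. RPKM counts both alleles together and is scaled to gene length, so that levels can be set side by side between genes. The 7 heavy chain genes summed to 1593, 1736, 1640 and 1561 RPKM in the same replicates, a mean of 1632 ± 76.3. B2m over this sum was 0.889, 0.923, 1.05 and 1.15, so that it lay below the heavy chains in 2 replicates and above them in the other 2. Equal levels lay within the range of the replicates. In bulk RNA fewer cells of a type and less RNA per cell cannot be told apart, and this holds for every level given here.

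The classical genes H2-K1 and H2-D1 supplied most heavy chain RNA. H2-K1 (ENSMUSG00000061232, chromosome 17:33996017-34000347, minus strand) was at 499, 564, 572 and 550 RPKM in replicates 1 to 4, with a mean of 546 ± 32.7 and rank 53. H2-D1 (ENSMUSG00000073411, chromosome 17:35262730-35267499, plus strand) was at 521, 553, 544 and 506 RPKM, with a mean of 531 ± 21.5 and rank 54. Their ranges overlapped, and H2-K1 was the higher in 3 of 4 replicates. Together they made up 66.0% ± 2.13 of the summed heavy chain level.

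The Q genes came next. H2-Q4 (ENSMUSG00000035929, chromosome 17:35379617-35385290, plus strand), which encodes the Qb-1 chain, was at 186, 209, 187 and 180 RPKM, and H2-Q7 (ENSMUSG00000060550, chromosome 17:35439155-35443773, plus strand), which encodes a Qa-2 antigen, at 134, 156, 120 and 121 RPKM. H2-Q6 (ENSMUSG00000073409, chromosome 17:35424850-35430055, plus strand), another gene of the Qa-2 group, was at 96.8, 104, 81.7 and 73.6 RPKM. All 4 values of H2-Q4 lay above all values of H2-Q7, and those above all values of H2-Q6. H2-Q6 and H2-Q7 were both higher in replicates 1 and 2 than in replicates 3 and 4. The myeloid marker sums, 51.5, 82.6, 30.8 and 20.9 RPKM in replicates 1 to 4, were also higher in replicates 1 and 2. So were the B cell marker sums, at 10.5, 6.92, 4.61 and 5.16 RPKM. The part of these cells in the levels was not tested.

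The T genes encode chains with specialised partners. H2-T23 (ENSMUSG00000067212, chromosome 17:36029773-36032855, minus strand) encodes Qa-1, which shows leader peptides of other class I chains to the inhibitory receptor of Klrd1 and Klrc1, and was at 106, 97.0, 88.2 and 82.6 RPKM. Its range overlapped with that of H2-Q6. H2-T22 (ENSMUSG00000056116, chromosome 17:36037128-36042747, minus strand) encodes a chain that some gamma delta T cell receptors bind, and was at 49.4, 53.9, 46.3 and 47.8 RPKM. H2-T23 and Tap1 were both highest in replicate 1, where the class II sum was also highest, and its part in them was not tested.

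Tap1 and Nlrc5 were the lowest of the 10. Tap1 (ENSMUSG00000037321, chromosome 17:34187553-34197225, plus strand) was at 46.7, 41.1, 37.1 and 38.6 RPKM and lay below H2-T22 in 4 of 4 replicates, although the ranges overlapped. Nlrc5 (ENSMUSG00000074151, chromosome 8:94434356-94527272, plus strand) was at 30.2, 34.6, 26.7 and 26.6 RPKM, with a mean of 29.5 ± 3.80 and rank 1240, and all its values lay below those of Tap1. Like H2-Q6 and H2-Q7 it was higher in replicates 1 and 2 than in the other 2. The order from high to low was therefore B2m, H2-K1 with H2-D1, H2-Q4, H2-Q7, H2-T23 with H2-Q6, H2-T22 with Tap1, and Nlrc5, where the pairs joined by "with" had overlapping ranges. The coefficient of variation over replicates ran from 4.05% for H2-D1 to 15.4% for H2-Q6, beside a median of 8.77% over the 2072 genes with at least 20 RPKM.

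**Figure D1:**
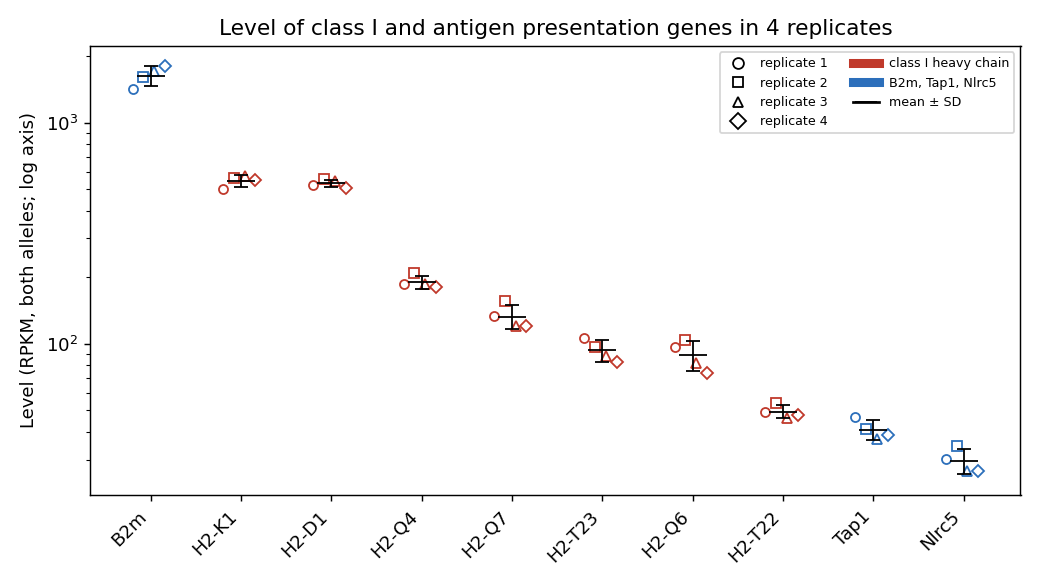
Level of each of the 10 genes in RPKM of both alleles together, on a log axis. Symbols are the 4 replicates and bars the mean ± SD. B2m lies highest at 1416 to 1791 RPKM, H2-K1 and H2-D1 overlap between 499 and 572 RPKM, and Nlrc5 is lowest at 26.6 to 34.6 RPKM.

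The promoters of the heavy chains are shown because the cells were kept with an inhibitor of NF-κB signalling and because the genes share a promoter layout. Promoter windows of 300 bases, from 250 bases before the start site, were found for 9 of the 10 genes in RefSeq (GRCm38.p6, the C57BL/6 reference). Nlrc5 is named only. The Castaneus promoter sequences were not used here, so no letter below distinguishes the alleles. The NF-κB letters of enhancer A, GGGGATTCC, were found in 4 of 7 heavy chain windows, those of H2-K1, H2-D1, H2-Q6 and H2-Q7, and in 0.250% of all 32851 windows, both strands searched in each case. The looser form GGGNNTTCC, which contains the first, was found in 5 of 7, with H2-Q4 added, and in 5.82% of all windows.

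These 5 windows share more than the NF-κB letters. The interferon response element spelled GAAANNGAA was found in H2-T22, H2-T23 and B2m and in 8.56% of all windows. With the other spacing, GAANNGAAA, a motif added after the promoters were seen, it was found in the same 5 heavy chains that have the looser NF-κB letters, always as TTTCACTTC on the printed strand, and in 7.52% of all windows. The stretch from 10 bases before the NF-κB letters is given for these 5 genes over 60 bases, 5′ to 3′ on the strand of the gene, with both motifs in capitals.
H2-K1: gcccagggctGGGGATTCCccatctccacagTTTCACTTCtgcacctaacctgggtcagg
H2-D1: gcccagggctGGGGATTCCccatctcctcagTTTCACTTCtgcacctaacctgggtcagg
H2-Q6: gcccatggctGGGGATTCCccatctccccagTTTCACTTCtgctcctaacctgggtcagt
H2-Q7: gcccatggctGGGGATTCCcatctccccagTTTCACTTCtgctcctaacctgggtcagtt
H2-Q4: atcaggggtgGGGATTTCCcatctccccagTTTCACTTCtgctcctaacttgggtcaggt
H2-D1 differed from H2-K1 at 1 of the 60 bases and H2-Q6 at 4. The motifs stand 12 bases apart in H2-K1, H2-D1 and H2-Q6 and 11 apart in H2-Q7 and H2-Q4, and H2-Q4 reads GGGATTTCC. On mm10 these stretches lie on chromosome 17 at 34000409-34000468 for H2-K1, 35262913-35262972 for H2-D1, 35424667-35424726 for H2-Q6, 35439012-35439071 for H2-Q7 and 35379434-35379493 for H2-Q4.

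The windows of H2-K1, H2-T22 and B2m show how the motifs lie in a classical chain, in a T gene and in the light chain gene. Capitals mark all motifs searched, which were the above and the core letters TGACG of the X2 box and CCAAT of the Y box, on either strand. H2-K1 lies at chr17:34000298-34000597 on the minus strand, H2-T22 at chr17:36042693-36042992 on the minus strand and B2m at chr2:122147437-122147736 on the plus strand.
H2-K1: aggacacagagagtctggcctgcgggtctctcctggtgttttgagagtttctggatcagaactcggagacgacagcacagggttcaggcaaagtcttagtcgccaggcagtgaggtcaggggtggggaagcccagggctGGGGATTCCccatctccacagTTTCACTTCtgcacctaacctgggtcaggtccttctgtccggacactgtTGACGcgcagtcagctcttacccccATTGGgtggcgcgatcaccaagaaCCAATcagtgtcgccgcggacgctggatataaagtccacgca
H2-T22: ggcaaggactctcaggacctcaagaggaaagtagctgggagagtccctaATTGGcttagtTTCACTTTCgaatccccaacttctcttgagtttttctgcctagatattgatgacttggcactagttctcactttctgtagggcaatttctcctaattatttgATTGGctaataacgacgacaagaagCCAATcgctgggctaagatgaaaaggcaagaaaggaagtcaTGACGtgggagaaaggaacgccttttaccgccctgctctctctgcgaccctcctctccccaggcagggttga
B2m: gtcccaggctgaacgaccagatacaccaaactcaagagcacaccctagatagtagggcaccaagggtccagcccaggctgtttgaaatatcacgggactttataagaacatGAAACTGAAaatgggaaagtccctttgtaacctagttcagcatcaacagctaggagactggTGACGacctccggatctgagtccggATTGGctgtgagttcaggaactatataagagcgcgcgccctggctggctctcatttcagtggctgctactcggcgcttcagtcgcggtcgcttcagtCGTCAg
CCAAT was found in 9 of 9 windows of these genes and in 37.4% of all windows, and TGACG in 7 of 9 and in 20.8%. H2-Q6 and H2-T23 are the 2 without TGACG. RefSeq gives H2-K1 2 start sites, of which the one further upstream is shown.

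The heavy chain genes also share coding sequence, which bears on how reads can be placed. Between the longest open reading frames of the 7 genes the identity of aligned bases ran from 74.4% to 95.4% over 21 pairs, with a median of 83.8%. H2-Q6 and H2-Q7 were the most alike at 95.4%, H2-K1 and H2-D1 had 91.5%, and H2-K1 and H2-T22 were the least alike at 74.4%. Of the stretches of 50 bases in the transcripts of a gene, the share also found in another gene was 9.63% for H2-K1, 12.8% for H2-D1, 14.5% for H2-T23, 26.5% for H2-Q7, 35.0% for H2-Q6, 36.4% for H2-Q4 and 53.5% for H2-T22. For B2m, Tap1 and Nlrc5 it was 0%, 3.33% and 0.338%. Both strands of the other genes were searched, so that genes overlapping on opposite strands count as well. H2-Q4 shared the most with Gm11131, at 15.3%, which lies antisense to it over 676 bases. Psmb9 overlaps Tap1 and 9330175E14Rik overlaps Nlrc5 in the same way, with 2.88% and 0.338% of the stretches. Stretches shared through such an overlap are no sign of a second copy. Given the shares above, reads of H2-Q4, H2-Q6, H2-Q7 and H2-T22 may be split between genes, and their values are uncertain to that extent. For H2-Q4 part of this sharing is with the overlapping Gm11131. No source used here states how reads with several possible places were handled.

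Turning to the alleles, most allelic reads of the 7 heavy chains together were assigned to the C57BL/6 copy, whereas the conserved genes were close to balance. Not every heavy chain had this lean, since H2-Q4 was near balance and H2-T23 leaned to Castaneus. Of the 10 genes, 0 were higher from Castaneus, 8 were higher from C57BL/6 and 2 passed in neither direction (edgeR's quasi-likelihood test with Benjamini-Hochberg adjustment over all tested autosomal genes, FDR 5%). Among the 10268 autosomal genes tested the same rule called 12.4% higher from Castaneus and 15.6% higher from C57BL/6, or 28.1% in either direction. All 10 genes passed the minimum of 20 allelic reads and 1 RPKM in the mean. Calls also depend on depth, and the mean allelic reads ran from 214 for H2-T23 to 136876 for B2m. B2m and Tap1 were called at log2 ratios of -0.13 and -0.16, beside a median absolute ratio of 0.26 over all tested genes. The part of depth in the count of calls was not tested. At an unadjusted p under 0.05 in edgeR, 1 of the 10 was higher from Castaneus, beside 1687 of all 10268 tested genes. With DESeq2 after adjustment it was also 1 of the 10, beside 1930. Without the replicate block 5 of the 10 were higher from C57BL/6, beside 1138 of all 10268 tested genes. Without replicate 4 it was 7 of the 10, beside 1034 of all tested genes. With all replicates it was 8 of the 10, beside 1605. The alignment used mm10, which is the C57BL/6 sequence, and its part in the shares was not tested. Summed over the 7 heavy chains, the Castaneus share of allelic reads was 27.3%, 28.0%, 28.4% and 27.1% in replicates 1 to 4, a mean of 27.7% ± 0.619 (SD, n = 4), against 49.6% ± 0.0870 over all autosomal reads.

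H2-K1 had the lowest Castaneus share of the 10. It gave 11689, 9681, 12297 and 10197 Castaneus reads in replicates 1 to 4, against 49985, 41967, 50208 and 46475 C57BL/6 reads. The Castaneus shares were 19.0%, 18.7%, 19.7% and 18.0%, a mean of 18.8% ± 0.691, and the replicates lay within a narrow range far below an equal share. The log2 ratio of Castaneus over C57BL/6 was -2.08 with a standard error of 0.03 (edgeR's quasi-likelihood test, adjusted p = 1.10e-11). Of the 558 genes with at least 10000 allelic reads per replicate in the mean, 5 had a ratio as low as or lower than that of H2-K1, itself included, and 6 as low as or lower than that of H2-D1, both included.

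H2-D1, the other classical chain, leaned the same way by less. It had 16131, 13306, 15843 and 13873 Castaneus reads, against 45133, 35258, 39560 and 38184 C57BL/6 reads. The shares were 26.3%, 27.4%, 28.6% and 26.6%, all above the 4 shares of H2-K1, with a mean of 27.2% ± 1.01. Its log2 ratio was -1.39 with a standard error of 0.03 (edgeR, adjusted p = 2.35e-10). H2-K1 and H2-D1 summed to a Castaneus share of 22.9% ± 0.728.

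The 3 Q genes differed among themselves. H2-Q4 did not pass in either direction, with Castaneus shares of 50.4%, 51.1%, 46.0% and 49.7% and a log2 ratio of -0.02 with a standard error of 0.05 (edgeR, adjusted p = 0.849). Its ratio was 0.03 with TMM factors and 0.05 without replicate 3, so that it has no stable sign. H2-Q6 had Castaneus shares of 36.7%, 35.6%, 39.6% and 39.9%, all below those of H2-Q4, and a log2 ratio of -0.69 with a standard error of 0.06 (edgeR, adjusted p = 6.86e-06).

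H2-Q7 was further from balance than H2-Q6. Its Castaneus shares were 26.1%, 22.6%, 28.9% and 23.4%, all below those of H2-Q6, and its log2 ratio was -1.55 with a standard error of 0.08 (edgeR, adjusted p = 2.08e-07). H2-Q7 gave few allelic reads for its level. Allelic reads per RPKM and kilobase of exon were 20.4% of those of the median tested gene, against 115% for H2-Q6 and 69.7% for H2-Q4. The same measure was 67.8% for H2-K1, 74.2% for H2-D1 and 40.6% for H2-T22. For B2m, Tap1 and Nlrc5 it was 183%, 106% and 117%. When H2-Q6 and H2-Q7 were summed, a choice made after the values were seen, the Castaneus share was 33.4% ± 2.12.

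The 2 T genes leaned in opposite directions, and only H2-T22 passed the test. It had 1288, 1191, 1546 and 1394 Castaneus reads, against 2166, 2432, 2307 and 2294 C57BL/6 reads, which are shares of 37.3%, 32.9%, 40.1% and 37.8%. The log2 ratio was -0.74 with a standard error of 0.09 (edgeR, adjusted p = 0.000102). Its transcripts share 31.2% of their 50 base stretches with H2-T10, a neighbouring T gene with the opposite lean. H2-T10 had Castaneus shares of 64.4%, 59.1%, 57.5% and 58.2%, and the 2 genes summed to 51.8% ± 2.71. H2-T10 weighed more in this sum, with a mean of 6726.8 allelic reads against 3654.5 for H2-T22. The sum therefore cannot show whether the lean of H2-T22 comes from misplaced reads. This sum was also chosen after the values were seen.

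H2-T23 rested on few reads. It had 125, 139, 172 and 125 Castaneus reads, against 91, 65, 91 and 48 C57BL/6 reads, although its level overlapped with that of H2-Q6. Its allelic reads per RPKM and kilobase were 1.48% of the median tested gene, at the percentile 0.224 of all tested genes. The Castaneus shares were 57.9%, 68.1%, 65.4% and 72.3%, above an equal share in 4 of 4 replicates, with a log2 ratio of 0.98 and a standard error of 0.37 (edgeR, adjusted p = 0.0742). The adjusted p ranged from 0.00316 with DESeq2 to 0.264 over the 10 alternatives and passed in 2 of them. The gene A930015D03Rik lies antisense over all 3083 bases of H2-T23 at 3.40 RPKM, and no source used here states whether counting took account of strand.

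The exact Clopper-Pearson 95% intervals of the replicate shares were 11.8 to 13.8 percentage points wide for H2-T23 and at most 3.25 points for the other 9 genes. They treat each read as independent and leave out the spread between replicates. Reads copied from the same molecule are not independent, so the intervals are too narrow even for counting error. The estimated reads per molecule were 11.4, 22.6, 13.0 and 7.19 in replicates 1 to 4. Among tested genes with 100 to 400 allelic reads the median SD of the share over replicates was 10.3 points in 1640 genes, against 6.06 points for H2-T23.

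**Figure D2:**
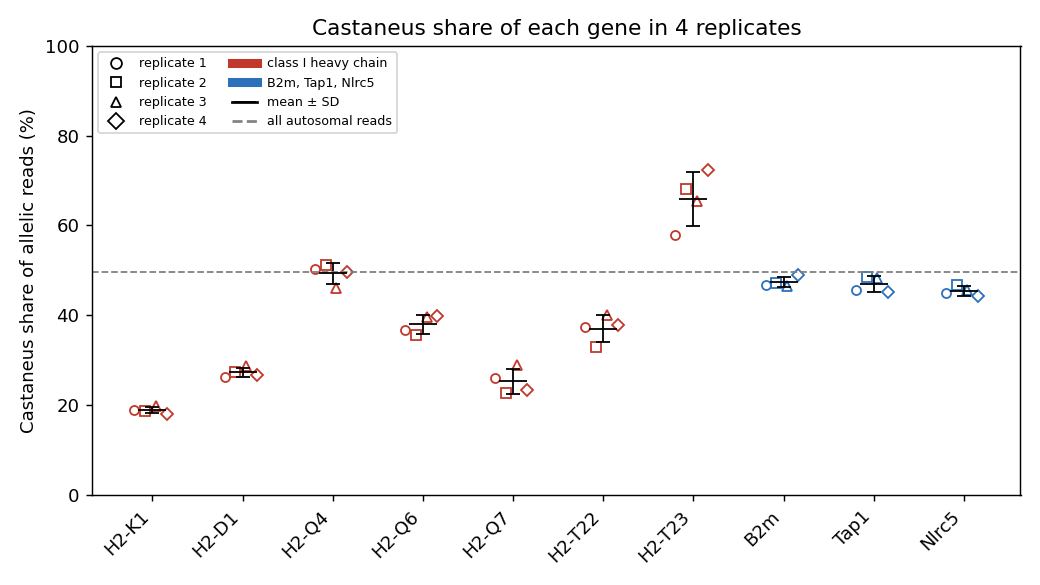
Castaneus share of the allelic reads of each gene, in percent. Symbols are the 4 replicates, bars the mean ± SD, and the dashed line the share of all autosomal reads, 49.6%. H2-K1 lies lowest at 18.0% to 19.7%, H2-Q4 and the 3 conserved genes lie between 44.4% and 51.1%, and H2-T23 lies highest at 57.9% to 72.3%.

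B2m, Tap1 and Nlrc5 passed with small imbalances to C57BL/6. B2m had 60276, 57105, 70760 and 71211 Castaneus reads, against 68587, 63874, 81267 and 74424 C57BL/6 reads, or Castaneus shares of 46.8%, 47.2%, 46.5% and 48.9%. All were below an equal share, and the log2 ratio was -0.13 with a standard error of 0.02 (edgeR, adjusted p = 0.00132). With TMM factors it was -0.081 (edgeR, adjusted p = 0.0217), and B2m was still called. Nlrc5 had shares of 44.9%, 46.7%, 45.5% and 44.4% and a log2 ratio of -0.24 with a standard error of 0.04 (edgeR, adjusted p = 0.00206). Both calls were lost without the replicate block, with adjusted p of 0.251 for B2m and 0.163 for Nlrc5.

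The call of Tap1 stood at the threshold. Its Castaneus shares were 45.7%, 48.5%, 48.3% and 45.1%, and its log2 ratio was -0.16 with a standard error of 0.05 (edgeR, adjusted p = 0.0498). It passed in 2 of 10 alternatives and was lost without replicate 1, 3 or 4, with adjusted p of 0.192, 0.0724 and 0.215. Over all alternatives the adjusted p ranged from 0.0124 to 0.345, and the ratio kept its sign.

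Set against each other as unweighted means, the 7 heavy chains had Castaneus shares of 36.2%, 36.6%, 38.3% and 38.2% in replicates 1 to 4, and B2m, Tap1 and Nlrc5 had 45.8%, 47.5%, 46.8% and 46.1%. The heavy chains lay lower by -9.56, -10.9, -8.46 and -7.90 points, in 4 of 4 replicates, with a mean difference of -9.19 ± 1.31 points. The median absolute log2 ratio was 0.98 for the heavy chains, 0.16 for the other 3 genes and 0.26 for all tested autosomal genes. The value of 0.98 is that of H2-T23, which leaned to Castaneus, was not called and rested on few reads. The heavy chain values ran from 18.8% to 65.9% and so enclosed those of the 3 conserved genes, which ran from 45.4% to 47.4%. Since the genes were listed with earlier results known, these group values are a description with no test.

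**Figure D3:**
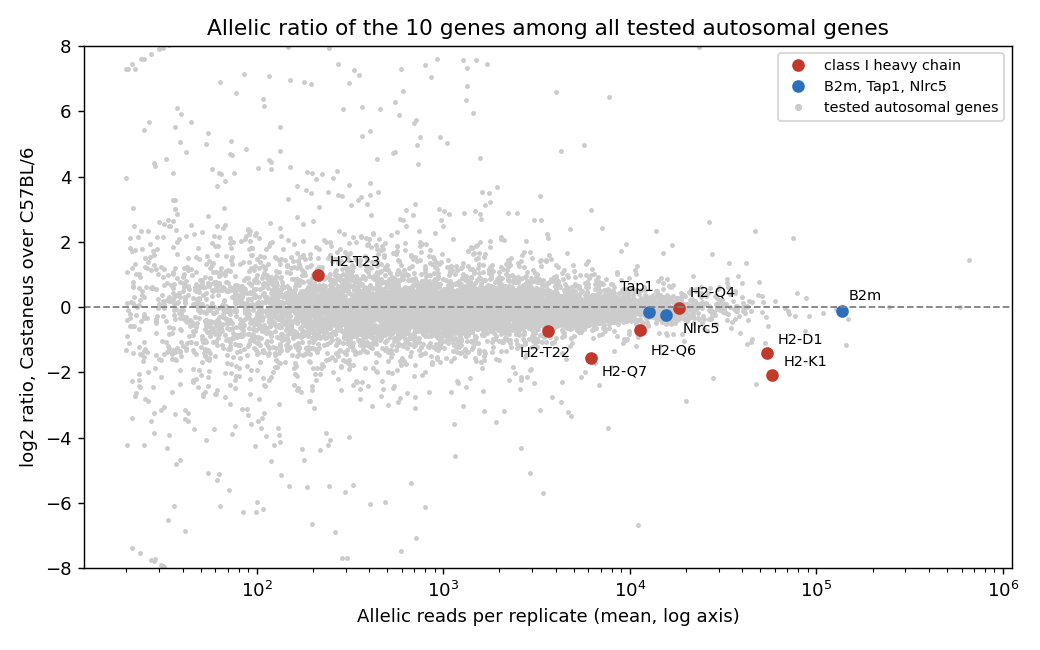
Log2 ratio of Castaneus over C57BL/6 against mean allelic reads per replicate (log axis) for the 10268 tested autosomal genes in grey and the 10 genes in colour. H2-K1 at -2.08 and H2-D1 at -1.39 lie below the bulk of genes with similar read numbers, while B2m lies near 0. A further 88 tested genes lie beyond the plotted range of ±8.

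Other class I genes were unbalanced in both directions. Of the 19 other heavy chain and class I-like genes listed, 16 were in the files and 8 could be tested. Of these 8, 3 were higher from Castaneus, 2 were higher from C57BL/6 and 3 passed in neither direction. Over all tested autosomal genes 12.4% were called higher from Castaneus and 15.6% from C57BL/6. H2-Q8, H2-Q9 and H2-T9 were not analysed here. H2-Q5, at 55.1 RPKM, had Castaneus shares of 8.78%, 10.3%, 9.89% and 10.4% (edgeR, adjusted p = 1.63e-08), and H2-Q2, at 2.51 RPKM, a mean of 6.12% ± 6.23 (edgeR, adjusted p = 0.00270). On the other side were H2-T10 with 59.8% ± 3.14, H2-Bl with 89.6% ± 9.42 and H2-Q10 with 75.5% ± 5.37, the last named after its values were seen. H2-M3, which presents formylated bacterial peptides, had 45.4% ± 9.03 and H2-Q1 67.5% ± 19.1, and neither passed. H2-Q2, H2-Bl and H2-Q1 rested on few reads, with means of 123.5, 184.75 and 102.25 allelic reads per replicate, against 214 for H2-T23. Of these, H2-Q2 had 20, 12, 1 and 1 Castaneus reads in replicates 1 to 4.

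By edgeR none of the 7 genes for peptide loading and transport passed in either direction, with mean Castaneus shares of 46.4% to 52.5%, while at an unadjusted p under 0.05 in edgeR 2 were higher from Castaneus and 1 from C57BL/6. The chaperone genes Calr and Canx had 47.4% ± 3.08 and 51.8% ± 1.25, Pdia3 48.8% ± 0.959 and the tapasin gene Tapbp 51.3% ± 0.502. With TMM factors 2 of these 7 were higher from Castaneus, with DESeq2 3, and without replicate 2 there was 1 in each direction. Of 5 genes of the immunoproteasome and its activator, Psmb8 with 57.5% ± 0.935 and Psme2 with 56.8% ± 1.69 were higher from Castaneus (edgeR, adjusted p = 0.00103 and 0.00363). Psme1, the partner of Psme2 in the activator, was higher from C57BL/6 at 44.1% ± 1.71 from Castaneus (edgeR, adjusted p = 0.00153). Psmb9, which lies beside Tap1, had 48.9% ± 2.14 and did not pass, nor did Psmb10. The calls higher from Castaneus and from C57BL/6 were thus 0 and 0 of the 7 and 2 and 1 of the 5. Among all tested autosomal genes they were 12.4% and 15.6%.

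Of 13 genes for factors that act at class I promoters 1 was higher from Castaneus, 2 were higher from C57BL/6 and 10 passed in neither direction, beside 12.4% and 15.6% called higher from Castaneus and from C57BL/6 over all tested autosomal genes. Nfya, which encodes a chain of the Y box protein NF-Y and lies on chromosome 17, had Castaneus shares of 79.2%, 74.0%, 76.6% and 73.3% at 6.10 RPKM (edgeR, adjusted p = 5.57e-07). Creb1, which encodes a protein of the X2 box, had a Castaneus share of 46.0% ± 1.65 (edgeR, adjusted p = 0.0457). Without replicate 1 or 4 there were 0 and without replicate 3 there was 1 such factor higher from C57BL/6. The NF-κB genes Rela and Nfkb1 were at 52.5 and 45.5 RPKM with Castaneus shares of 48.8% ± 5.14 and 49.5% ± 1.00, and Irf1 had 47.4% ± 1.73, and none of these passed.

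Of 9 receptor genes for class I molecules 5 could be tested. By edgeR with or without adjustment and by DESeq2, 0 of these were higher from Castaneus and 2 from C57BL/6. The shares called by edgeR over all tested autosomal genes were 12.4% and 15.6%. The coreceptor genes Cd8b1 and Cd8a had Castaneus shares of 48.9% ± 2.43 and 51.8% ± 2.36 and did not pass. Klrc1, whose product pairs with that of Klrd1 and binds Qa-1, had 25.4% ± 6.70 at 3.63 RPKM (edgeR, adjusted p = 0.000540), and Klrd1 had 41.4%, 61.9%, 43.2% and 53.4% in replicates 1 to 4 and did not pass. Pirb, an inhibitory receptor of myeloid and B cells, had 21.7% ± 12.2 at 1.28 RPKM (edgeR, adjusted p = 0.0167). Without replicate 4 only 1 of these 2 passed.

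The genes around the heavy chains were read in the same way. The MHC interval, taken from the first to the last H2- gene of chromosome 17 (chromosome 17:33974659-37483552), holds 273 genes not named H2-, Tap1 among them, of which 68 were tested. Of these 9 were higher from Castaneus and 4 from C57BL/6, and 55 passed in neither direction, beside 1278, 1605 and 7385 of all 10268 tested autosomal genes. Their median Castaneus share was 49.9%, beside 48.9% over all tested genes. The neighbours with the most reads were Brd2, a chromatin reader, with 48.6% ± 1.16 from Castaneus, and Ddx39b, an RNA helicase, with 55.1% ± 1.13, followed by Tap1. Without replicate 4 there were 7 and 1 such neighbours higher from Castaneus and from C57BL/6, and without replicate 1 there were 7 and 2.

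The called neighbours with the largest ratios lay on both sides. Gm7030 had a Castaneus share of 93.0% ± 6.70, the complement gene C4a 81.7% ± 7.89 and the collagen receptor gene Ddr1 70.6% ± 2.78. On the C57BL/6 side Gm19684 had 21.9% ± 7.19, Gm11131 32.0% ± 7.58 and Agpat1, an enzyme of phospholipid synthesis, 42.6% ± 2.04. Gm7030 and Gm19684 rested on few reads, with means of 62.75 and 157.5 allelic reads per replicate. The span of Gm7030 (36109719-36129425) encloses that of H2-T10 (36115876-36121465) and overlaps that of Gm19684 (36121678-36129692). The part of this overlap in their shares was not tested. Gm11131 lies antisense to H2-Q4 over 676 bases. Added together, the neighbours not named H2- had a Castaneus share of 51.1% ± 0.548, and the H2- genes of the chromosome other than the 7 heavy chains had 46.8% ± 2.30.

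**Figure D4:**
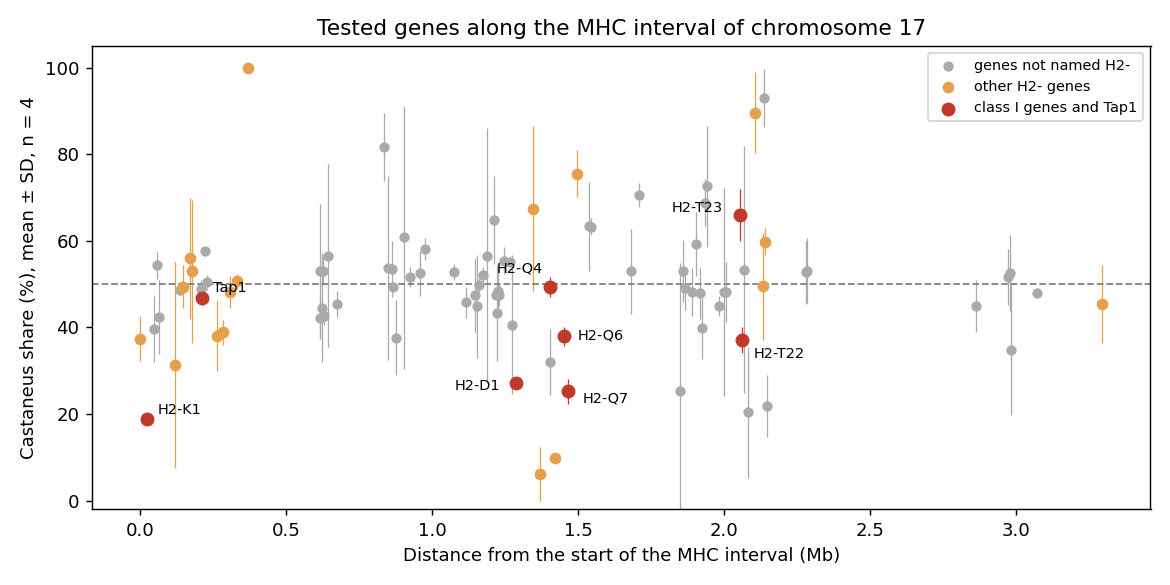
Castaneus share of each tested gene along the MHC interval of chromosome 17, by distance of the gene from the start of the interval in megabases. Points are means and bars the SD of 4 replicates, with the 7 heavy chains and Tap1 in red, other H2- genes in orange and other genes in grey. H2-K1, H2-D1 and H2-Q7 lie below 30% among grey neighbours that centre on a median of 49.9%.

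The 7 heavy chains weighed on the Castaneus share of their whole chromosome. They held 8.31% to 9.52% of the allelic reads of chromosome 17. The Castaneus share of the chromosome was 46.8%, 46.8%, 46.8% and 47.2% in replicates 1 to 4, the lowest of the 19 autosomes in the mean at 46.9% ± 0.213. Without the 7 heavy chains it was 48.8% ± 0.209, and without the whole MHC interval 48.6% ± 0.247. Both values lie within the means of the other autosomes, which lay between 47.7% (chromosome 16) and 50.5% (chromosome 2) except for 58.1% on chromosome 14. The direction of this difference follows from the low share of the heavy chains and their part of the reads.

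**Figure D5:**
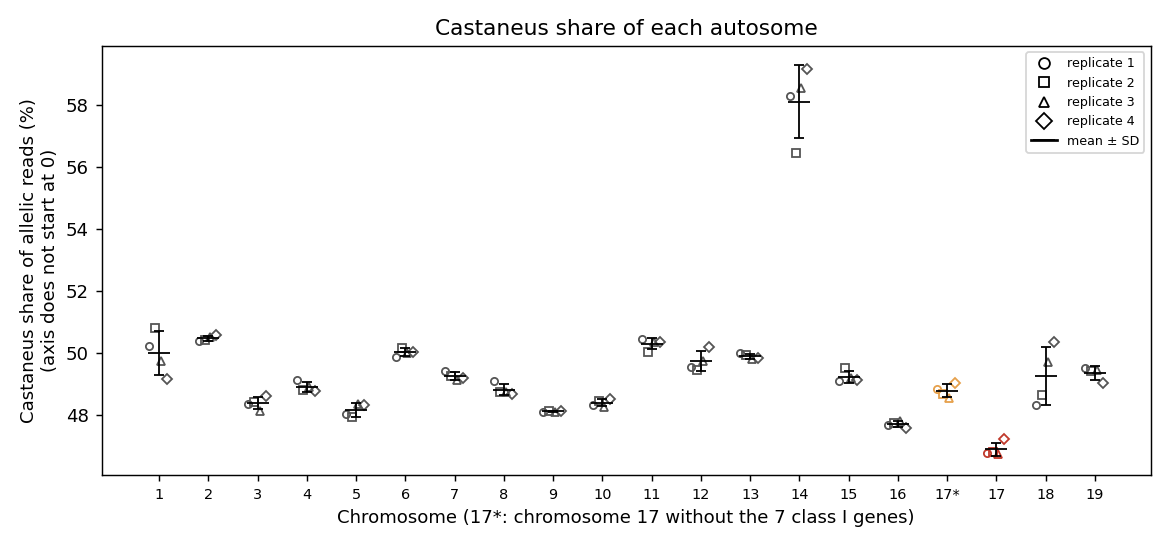
Castaneus share of the allelic reads of each autosome, in percent, with an axis that does not start at 0. Symbols are the 4 replicates and bars the mean ± SD. Chromosome 17 lies lowest at 46.9% and, without the 7 heavy chains (17*), at 48.8%.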

How the data were processed

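The authors deposited whole-number read counts per gene and allele, not normalized, per the file headers, and RPKM values of both alleles together, with a scaling total that no source used here states. The submitters' processing notes name STAR 2.7.1a, featureCounts and mm10. The libraries were total RNA made with a stranded ribosomal depletion kit, per the labels' protocols. No source used here states how reads were assigned to alleles, with which variants, or how duplicates were treated.

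Allele counts were modelled by quasi-likelihood in edgeR 4.0.16 under R 4.3.3 (glmQLFit, glmQLFTest), with terms for replicate, because a library holds both alleles, and for allele. The library size was the autosomal total of an allele, and a two-sided test against a ratio of 1 was adjusted over 10268 autosomal genes with means of at least 20 allelic reads and 1 RPKM. Alternatives were TMM factors, DESeq2 1.42.0, lower minimums, no block, reads divided by estimated reads per molecule (11.4, 22.6, 13.0 and 7.19 in replicates 1 to 4), and leaving out each replicate. The test was checked on simulated counts (3 simulations, 200 changed genes). When the simulated alleles differed by a ratio of 1.5, it called 27.0% of the changed genes. At a ratio of 2.0 it called 69.7%, and among unchanged genes 0%. Each simulation changed 200 of 10268 genes and gave all genes the same variability between replicates, whereas 28.1% of genes were called in the data. The rates may therefore differ in the data. The rates are also averages over genes of all read depths. Where reads are few, a gene that passed in neither direction may still be unbalanced by such a ratio. Standard errors of the log2 ratio differ between genes, at 0.05 for H2-Q4 and 0.37 for H2-T23. Positions came from GENCODE M21 and promoters from RefSeq GRCm38.p6. Other steps used Python 3.11.15, pandas 2.3.3, scipy 1.17.1, Biopython 1.88 and matplotlib 3.10.9.

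The 10 genes and all gene and marker lists were chosen with earlier results of these data known. Named from each list were the up to 4 genes with the highest RPKM and the up to 3 called genes with the largest ratio, and from the MHC interval up to 3 called genes per direction and the 3 with the most reads. Exceptions are marked where they occur. The values of 1 gene that this rule names are not reported here.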

Additional observations from a re-analysis of the deposited data

How the results depend on the processing

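Of 100 alternative values of the log2 ratios of the 10 genes, 85 kept direction and side of the threshold, 10 lost the call, 2 gained it and 3 changed sign, and the cause was not tested. H2-K1, H2-D1, H2-Q6, H2-Q7 and H2-T22 were called in 10 of 10 alternatives. The ratio of H2-Q4 was positive with TMM factors (0.031), with DESeq2 (0.026) and without replicate 3 (0.047), and leaving out a replicate gave -0.055 to 0.047. H2-T23 passed with DESeq2 (1.02, adjusted p = 0.00316) and with reads per molecule (0.92, edgeR, adjusted p = 0.0335), which is the 1 gene of the 10 then higher from Castaneus. Tap1 lost its call with TMM factors (-0.11), DESeq2 (-0.11), no RPKM minimum (-0.16), a minimum of 10 reads as well (-0.16), and without replicate 1, 3 or 4, with -0.19 to -0.12 when a replicate was left out. Without the replicate block the ratios were -0.13 for B2m, -0.16 for Tap1 and -0.24 for Nlrc5, of which none passed. Then 5 of the 10 genes were higher from C57BL/6, beside 1138 of all 10268 tested genes.

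Over all autosomal genes DESeq2 called 1930 higher from Castaneus, against 1278, and leaving out a replicate gave 1034 to 1728 higher from C57BL/6, against 1605. In peptide loading, Castaneus was higher in 2 genes with TMM factors, 3 with DESeq2 and 2 with reads per molecule, and C57BL/6 in 1 with reads per molecule, and leaving out a replicate gave 0 to 1 in either direction. Among promoter factors 2 were higher from Castaneus with DESeq2, and 1 was higher from C57BL/6 with TMM factors, with no RPKM minimum and with 10 reads, 0 without the replicate block, and 0 to 2 when a replicate was left out. Receptors higher from C57BL/6 numbered 1 to 2 when a replicate was left out. Among MHC neighbours DESeq2 gave 16 higher from Castaneus, no replicate block gave 2 higher from C57BL/6, and leaving out a replicate gave 1 to 4.

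The share of the 7 heavy chains was 27.0% without H2-Q6 and H2-Q7 and 37.4% as an unweighted mean. That of chromosome 17 was 48.8% without H2- genes and 48.6% without the MHC interval. Depth limits H2-T23 most, with 173 to 263 allelic reads per replicate.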
